A study of Mus musculus with 13 samples.

Results

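The 10 genes described here belong to metal binding, detoxification and antioxidant defence, and their transcripts were measured in donor-derived mouse haematopoietic stem cells (HSCs). They are the metallothioneins Mt1 and Mt2, the mu-class glutathione transferases Gstm1, Gstm2 and Gstm5, the peroxide and superoxide enzymes Gpx1, Sod1, Sod2 and Cat, and the thioredoxin inhibitor Txnip. These 10 genes, of 24015 gene symbols in the deposited table, were listed by name, chosen by their levels and fold changes between groups in the same libraries, which were already known. Their levels and fold changes between groups are therefore given as a description, with no test of their own. Single Vwf+ HSCs of mouse bone marrow had been transplanted, and reconstitution was followed for 16 weeks. PLT-HSC (3 libraries) came from recipients described as P-restricted, PEM-HSC (6 libraries) from PEM-restricted recipients, and MUL-HSC (4 libraries) from recipients with multilineage reconstitution. In all 3 groups the cells were donor-derived (CD45.2+), of strain C57BL/6, and sorted as lineage-negative Sca-1+ Kit+ (LSK) cells without Flt3, with CD150, without CD48 and without Gata1. Each library was made from 100 sorted cells. The labels give no age, do not expand PEM, and do not say whether the libraries of a group came from different recipients, so the spread between replicates may be partly technical. Since every group was founded by Vwf+ cells, the series says nothing of HSCs that lack Vwf.

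Metallothioneins are small cysteine-rich proteins that bind zinc and copper, and their genes are switched on by the zinc-sensing factor MTF1 at metal response elements. Glutathione transferases attach glutathione to reactive compounds, glutathione peroxidase and catalase remove peroxides, and superoxide dismutases turn superoxide into hydrogen peroxide. Low reactive oxygen is known as a feature of quiescent HSCs, which lose self-renewal when oxidant load rises.

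Mt1 and Mt2 lie side by side on mouse chromosome 8 and were the 2 genes of the list whose levels moved together most closely, so their promoters are shown. Both run 5′ to 3′ on the plus strand from 250 bases before to 50 bases after the start of the gene (RefSeq, GRCm38.p6), at chr8:94178839-94179138 for Mt1 and chr8:94172368-94172667 for Mt2. Capitals mark the core of the metal response element, TGCACNC or TGCGCNC, on either strand.
Mt1: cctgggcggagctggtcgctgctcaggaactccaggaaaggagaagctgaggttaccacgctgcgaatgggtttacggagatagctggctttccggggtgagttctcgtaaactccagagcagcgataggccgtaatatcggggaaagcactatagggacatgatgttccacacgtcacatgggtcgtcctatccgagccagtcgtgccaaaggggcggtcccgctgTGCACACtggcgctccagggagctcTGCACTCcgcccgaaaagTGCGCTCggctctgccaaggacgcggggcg
Mt2: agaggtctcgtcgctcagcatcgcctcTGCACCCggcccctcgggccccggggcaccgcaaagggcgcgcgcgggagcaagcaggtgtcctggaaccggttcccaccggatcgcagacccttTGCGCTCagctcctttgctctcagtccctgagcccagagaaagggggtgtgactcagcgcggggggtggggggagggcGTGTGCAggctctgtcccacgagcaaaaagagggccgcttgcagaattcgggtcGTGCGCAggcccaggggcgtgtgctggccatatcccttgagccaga
The Mt1 window held 3 matches, all on the plus strand, and the last 2 of them lie after the start annotated in RefSeq. No other start of Mt1 was examined. The Mt2 window held 4 matches, 2 on each strand. Of 32544 mouse promoter windows of the same 300 bases, 25.9% held at least 1 match, 1.99% at least 3 and 0.522% at least 4. Gstm1, Gstm5 and Txnip had 1 match each, and Gstm2, Gpx1, Sod1, Sod2 and Cat had none. The antioxidant response element core, TGACNNNGC on either strand, matched once each in the windows of Mt2, Gstm5 and Sod1 and in 12.4% of all windows. The paired carbohydrate response element (ChoRE) matched in the Txnip window alone among the 10 genes, as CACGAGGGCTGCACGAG on chromosome 3, and in 0.369% of all windows. A match of letters is a description and not evidence of binding.

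Counts assigned to genes totalled 29017378 to 32437607 in PLT-HSC libraries, 22913695 to 28013676 in PEM-HSC libraries and 16371921 to 41367057 in MUL-HSC libraries. Levels are given as counts scaled to the library's gene total (CPM), and 3 counts, the limit used for a gene at 0, correspond to 0.0725 to 0.183 CPM. In these bulk libraries, fewer cells of a type and less RNA per cell cannot be told apart. All 10 HSC markers, including Kit, Procr, Hlf and Mecom, had counts in each group, with summed levels of 2487 to 3189 CPM in PLT-HSC libraries, 2332 to 2795 CPM in PEM-HSC libraries and 1733 to 2516 CPM in MUL-HSC libraries. MUL-HSC replicates 1 and 2 had the lowest summed HSC markers of the 13 libraries (1733 and 1895 CPM) and were already known to stand apart, so values without both are also given below. Lists of other cell types also held counts, over ranges that overlapped between the groups. The B and plasma cell list summed to 90.9 to 152 CPM in PLT-HSC libraries, 97.6 to 185 CPM among PEM-HSC and 105 to 168 CPM among MUL-HSC, led by Cd79b, with Ms4a1 and Pax5 at 0 throughout. The T and NK cell list summed to 157 to 376, 92.5 to 364 and 122 to 232 CPM in the same order, led by Klrb1c or Nkg7, with Cd3e, Cd3d and Cd3g at 0. The endothelial list summed to 111 to 193, 60.2 to 165 and 105 to 224 CPM, led by Emcn, with Cdh5 and Lyve1 at 0.

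The metallothioneins were highest in PLT-HSC libraries, intermediate in PEM-HSC libraries and lowest in MUL-HSC libraries by group mean. Mt1 had 296, 301 and 181 CPM in the PLT-HSC libraries, 87.7, 141 and 247 CPM as the lowest, median and highest of the PEM-HSC libraries, and 11.7, 6.79, 131 and 55.7 CPM in the MUL-HSC libraries. All 3 PLT-HSC libraries were above all 4 MUL-HSC libraries, while the PEM-HSC range overlapped both others. Within MUL-HSC, replicates 1 and 2 were far below replicates 3 and 4, so that the SD of the group exceeded its mean: 259 ± 67.7 CPM in PLT-HSC libraries (n = 3), 149 ± 54.3 in PEM-HSC libraries (n = 6) and 51.3 ± 57.5 in MUL-HSC libraries (SD, n = 4). The mean was 5.06-fold higher in PLT-HSC libraries than in MUL-HSC libraries (fitted log2 fold change 2.38, SE 0.69) and 2.90-fold higher in PEM-HSC libraries than in MUL-HSC libraries (1.54, SE 0.61). Without MUL-HSC replicates 1 and 2 these log2 fold changes were 1.52 and 0.69, and without MUL-HSC replicate 3 they were 3.44 and 2.60.

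Mt2, the neighbouring metallothionein, was a low gene with the same order of groups. It had 31.8, 50.8 and 23.2 CPM in the PLT-HSC libraries, 8.56, 19.97 and 26.1 CPM as the lowest, median and highest in PEM-HSC libraries, and 0, 0, 9.96 and 2.05 CPM in the MUL-HSC libraries. The 2 MUL-HSC libraries without a single Mt2 count were replicates 1 and 2, the same that were lowest for Mt1. Those libraries held 22192295 and 25911683 counts, so that 3 counts would be 0.135 and 0.116 CPM. Means were 35.3 ± 14.1 CPM in PLT-HSC libraries (n = 3), 18.0 ± 8.07 in PEM-HSC libraries (n = 6) and 3.00 ± 4.74 in MUL-HSC libraries (SD, n = 4). The mean was 11.8-fold higher in PLT-HSC libraries than in MUL-HSC libraries (fitted log2 fold change 3.61, SE 1.39) and 5.99-fold higher in PEM-HSC libraries than in MUL-HSC libraries (2.60, SE 1.23), and without MUL-HSC replicates 1 and 2 the log2 values were 2.61 and 1.59. Without MUL-HSC replicate 3 they were 5.72 and 4.71. Of the mature Mt2 transcript's 50-base stretches, 45.5% also occur, on either strand, in another annotated RNA, Gm45774, which has no row in the deposited counts. Whether the counting used strand is not given in the sources used here, so reads of these genes cannot be told apart. None of the Mt1 stretches recur in another annotated transcript. Mt3, a metallothionein best known from brain, had 0 to 74 counts a library, and Mt4 had 0 in all 13.

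**Figure D1:**
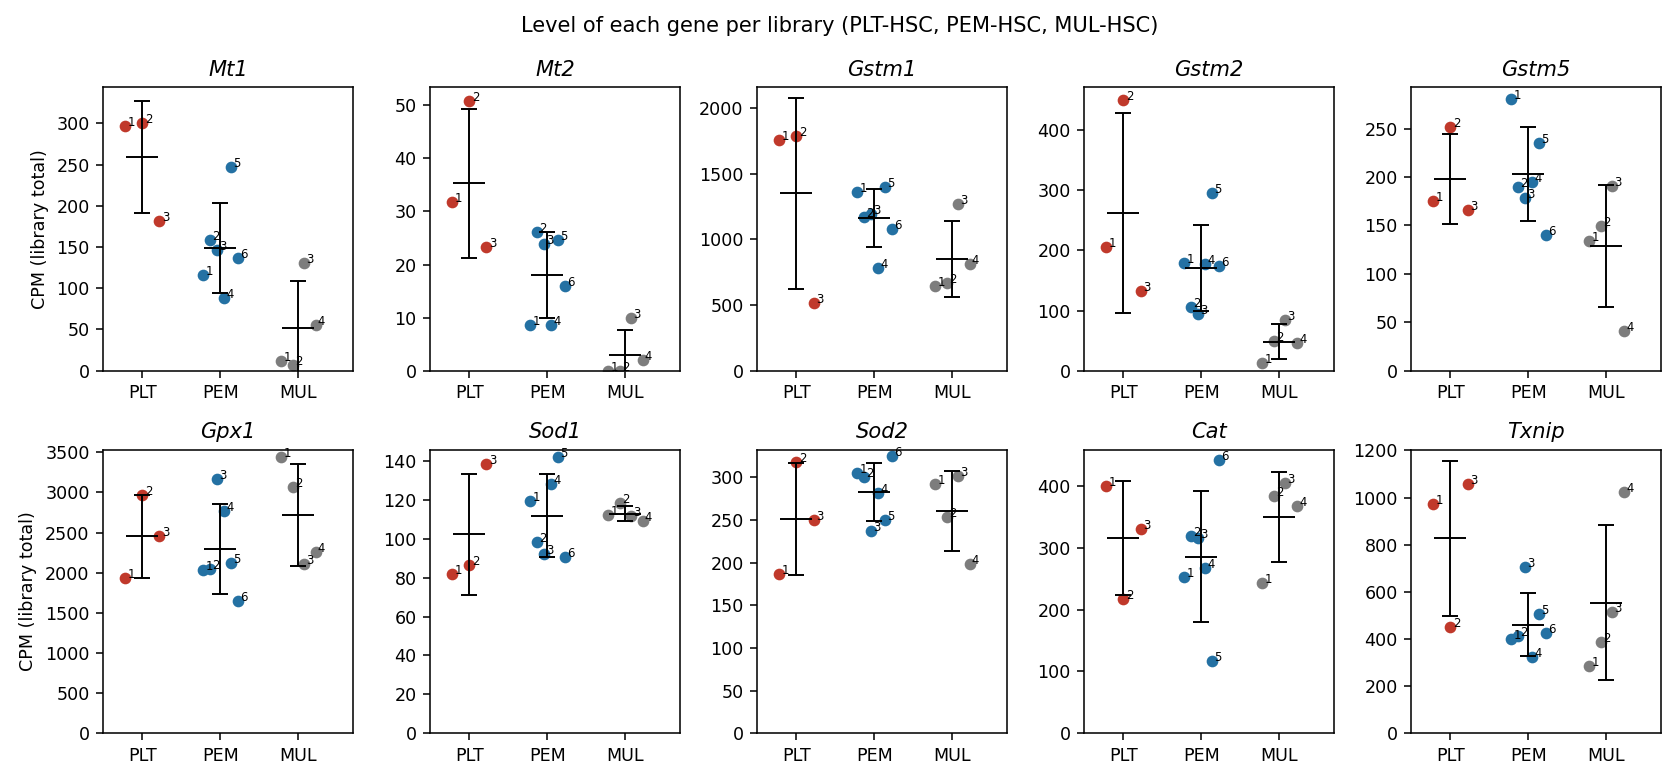
Level of each of the 10 genes in every library, as CPM of the library's gene counts on linear axes that start at 0, for PLT-HSC (left), PEM-HSC and MUL-HSC (right). Points are libraries with their replicate numbers and bars show the mean and SD. All 3 PLT-HSC points lie above all 4 MUL-HSC points for Mt1, Mt2 and Gstm2, while Sod1 in MUL-HSC libraries spans only 109 to 118 CPM.

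Macrophage markers differed between the same groups as the metallothioneins and Gstm2. Of 12 listed macrophage genes 11 were in the table under their symbols. Their summed level was 100.3 to 269 CPM in PLT-HSC libraries, 91.6 to 407 CPM in PEM-HSC libraries and 36.6 to 72.3 CPM in MUL-HSC libraries, so that MUL-HSC did not overlap either other group. Csf1r and Cd5l were at 0 in PLT-HSC libraries, none of the 11 in PEM-HSC libraries, and Csf1r and Mertk in MUL-HSC libraries. Cd68, a lysosomal gene, had the highest mean of them in PLT-HSC and PEM-HSC libraries, and Axl in MUL-HSC libraries. Hmox1 is in this list and also among the NRF2 pathway genes described below. It averaged 32.7 ± 25.5 CPM in PLT-HSC libraries and 8.48 ± 7.30 in MUL-HSC libraries. Among MUL-HSC, replicate 3, the highest for Mt1, had 954 CPM over 24 cell cycle genes, against 2808 to 3212 CPM in the other 3 libraries. A list of immediate early and stress genes summed to 1023 to 7633 CPM in PLT-HSC, 1638 to 4578 CPM in PEM-HSC and 553 to 3822 CPM in MUL-HSC libraries. Its lowest library was MUL-HSC replicate 1 and its highest PLT-HSC replicate 1. The part of macrophage, stress and cell cycle transcripts in the metallothionein and Gstm2 values was not tested.

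Among the glutathione transferases, Gstm2 differed most between the groups, Gstm5 had 1 low MUL-HSC library, and Gstm1, the most abundant per length, overlapped in every comparison. Gstm2 had 205, 450 and 132 CPM in the PLT-HSC libraries, 93.9, 175 and 296 CPM as the lowest, median and highest in PEM-HSC libraries, and 12.8, 49.5, 84.2 and 45.3 CPM in the MUL-HSC libraries. Every PLT-HSC and every PEM-HSC library was above every MUL-HSC library, and the PLT-HSC and PEM-HSC ranges overlapped. Means were 262 ± 166 CPM in PLT-HSC libraries (n = 3), 171 ± 71.8 in PEM-HSC libraries (n = 6) and 48.0 ± 29.2 in MUL-HSC libraries (SD, n = 4). This is a 5.47-fold higher mean in PLT-HSC libraries than in MUL-HSC libraries (fitted log2 fold change 2.51, SE 0.54) and a 3.56-fold higher mean in PEM-HSC libraries than in MUL-HSC libraries (1.82, SE 0.48). Without MUL-HSC replicates 1 and 2 the log2 values were 2.10 and 1.41, and without PLT-HSC replicate 2 the first was 1.76.

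Gstm1 had 1758, 1789 and 513 CPM in the PLT-HSC libraries, 785, 1183 and 1396 CPM as the lowest, median and highest in PEM-HSC libraries, and 647, 665, 1269 and 816 CPM in the MUL-HSC libraries. The 2 highest libraries and the lowest of all 13 belonged to PLT-HSC, and MUL-HSC replicates 3 and 4 lay within the PEM-HSC range. PLT-HSC replicate 3, the low one, had 3133 CPM over the 24 cell cycle genes, against 726 and 874 CPM in PLT-HSC replicates 1 and 2, and the part of this difference in the Gstm1 values was not tested. The fitted log2 fold change was 0.72 (SE 0.36) for PLT-HSC against MUL-HSC, 0.44 (SE 0.31) for PEM-HSC against MUL-HSC and 0.27 (SE 0.33) for PLT-HSC against PEM-HSC. Without PLT-HSC replicate 3 the first value was 1.12 and the last 0.68, and without PLT-HSC replicate 2 they were 0.39 and -0.048. Without MUL-HSC replicates 1 and 2 the first was 0.45 and the second 0.18, and without MUL-HSC replicate 3 the second was 0.71.

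Gstm5 had 176, 252 and 166 CPM in the PLT-HSC libraries, 140, 192 and 281 CPM as the lowest, median and highest in PEM-HSC libraries, and 134, 150, 191 and 41.4 CPM in the MUL-HSC libraries. MUL-HSC replicate 4 was the lowest of the 13 libraries and the other 3 fell near or within the ranges of PLT-HSC and PEM-HSC. The log2 fold change was 0.62 in both PLT-HSC (SE 0.39) and PEM-HSC (SE 0.34) against MUL-HSC. Without MUL-HSC replicate 4 these values were 0.31 and 0.33, and without MUL-HSC replicates 1 and 2 both were 0.81. The 3 transferases did not keep a constant proportion. The ratio of Gstm2 to Gstm5 was 0.794 to 1.78 in PLT-HSC libraries, 0.527 to 1.26 in PEM-HSC libraries and 0.0953 to 1.10 in MUL-HSC libraries, and that of Gstm1 to Gstm5 was 3.08 to 10.01, 4.04 to 7.69 and 4.44 to 19.7 in the same 3 groups. Of the 50-base stretches of Gstm1, 23.1% recur in other annotated genes, most of them in Gstm2-ps1 (17.3%). The shares were 9.36% for Gstm2, over Gm12499, Gm6665 and Gstm1, and 14.4% for Gstm5, in 4933431E20Rik, and reads from such stretches are uncertain to that extent. Gstm3, which shares stretches with Gstm1, had at most 10 counts in 12 of the 13 libraries and 149 counts in PLT-HSC replicate 2.

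The enzymes that remove superoxide and peroxide had ranges that overlapped between the 3 groups, with no member apart in any comparison. Gpx1, the cytosolic glutathione peroxidase, had 1933, 2968 and 2460 CPM in the PLT-HSC libraries, 1649, 2087 and 3167 CPM as the lowest, median and highest in PEM-HSC libraries, and 3441, 3065, 2108 and 2262 CPM in the MUL-HSC libraries. The 3 ranges overlapped, and the highest library was MUL-HSC replicate 1. Its log2 fold change was -0.15 (SE 0.25) for PLT-HSC and -0.28 (SE 0.21) for PEM-HSC, each against MUL-HSC, and without MUL-HSC replicates 1 and 2 these became 0.21 and 0.093.

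Sod1, the cytosolic copper-zinc superoxide dismutase, had 81.7, 86.6 and 138 CPM in the PLT-HSC libraries, 90.6, 109 and 142 CPM as the lowest, median and highest in PEM-HSC libraries, and 112, 118, 112 and 109 CPM in the MUL-HSC libraries. Its MUL-HSC libraries lay closest together of the 10 genes' values, at 113 ± 3.93 CPM (SD, n = 4), against 102 ± 31.3 CPM in PLT-HSC libraries (n = 3) and 112 ± 21.3 CPM in PEM-HSC libraries (n = 6). The log2 fold change was -0.17 (SE 0.24) for PLT-HSC and -0.04 (SE 0.20) for PEM-HSC, each against MUL-HSC, and -0.099 and 0.040 without MUL-HSC replicates 1 and 2. Of the Sod1 stretches 23.1% recur in Gm8566, which has no row in the table.

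Sod2, the manganese superoxide dismutase of mitochondria, had 187, 318 and 249.8 CPM in the PLT-HSC libraries, 237, 291 and 325 CPM as the lowest, median and highest in PEM-HSC libraries, and 292, 253, 301 and 198 CPM in the MUL-HSC libraries. PEM-HSC lay within the range of the other groups but for 1 library, and no group stood apart. The log2 fold change was -0.055 (SE 0.23) for PLT-HSC and 0.09 (SE 0.19) for PEM-HSC, each against MUL-HSC, and 0.053 and 0.20 without MUL-HSC replicates 1 and 2. Cat, the peroxisomal catalase, had 399.7, 217 and 329.8 CPM in the PLT-HSC libraries, 116, 291 and 442 CPM as the lowest, median and highest in PEM-HSC libraries, and 242, 383, 404 and 368 CPM in the MUL-HSC libraries. PEM-HSC held both the lowest and the highest Cat library of the 13. The log2 fold change was -0.17 (SE 0.32) for PLT-HSC and -0.32 (SE 0.27) for PEM-HSC, each against MUL-HSC, and -0.27 and -0.42 without MUL-HSC replicates 1 and 2.

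Txnip, which binds and inhibits thioredoxin and limits glucose uptake, was the member that separated PLT-HSC from PEM-HSC most relative to its standard error. It had 973, 450 and 1057 CPM in the PLT-HSC libraries, 323, 419 and 704 CPM as the lowest, median and highest in PEM-HSC libraries, and 285, 388, 515 and 1025 CPM in the MUL-HSC libraries. PLT-HSC replicates 1 and 3 and MUL-HSC replicate 4 were the 3 high libraries, and PLT-HSC replicate 2 fell inside the PEM-HSC range. The log2 fold change was 0.82 (SE 0.32) for PLT-HSC against PEM-HSC, 0.56 (SE 0.35) for PLT-HSC against MUL-HSC and -0.26 (SE 0.30) for PEM-HSC against MUL-HSC. Without MUL-HSC replicate 4 the last 2 values were 1.004 and 0.20, and without MUL-HSC replicates 1 and 2 they were 0.12 and -0.71. Of the Txnip stretches 18.5% recur, on either strand, in Gm15441. That gene had 7.25 to 12.8 CPM in PLT-HSC libraries, 2.43 to 8.64 CPM in PEM-HSC libraries and 2.12 to 4.64 CPM in MUL-HSC libraries.

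**Figure D2:**
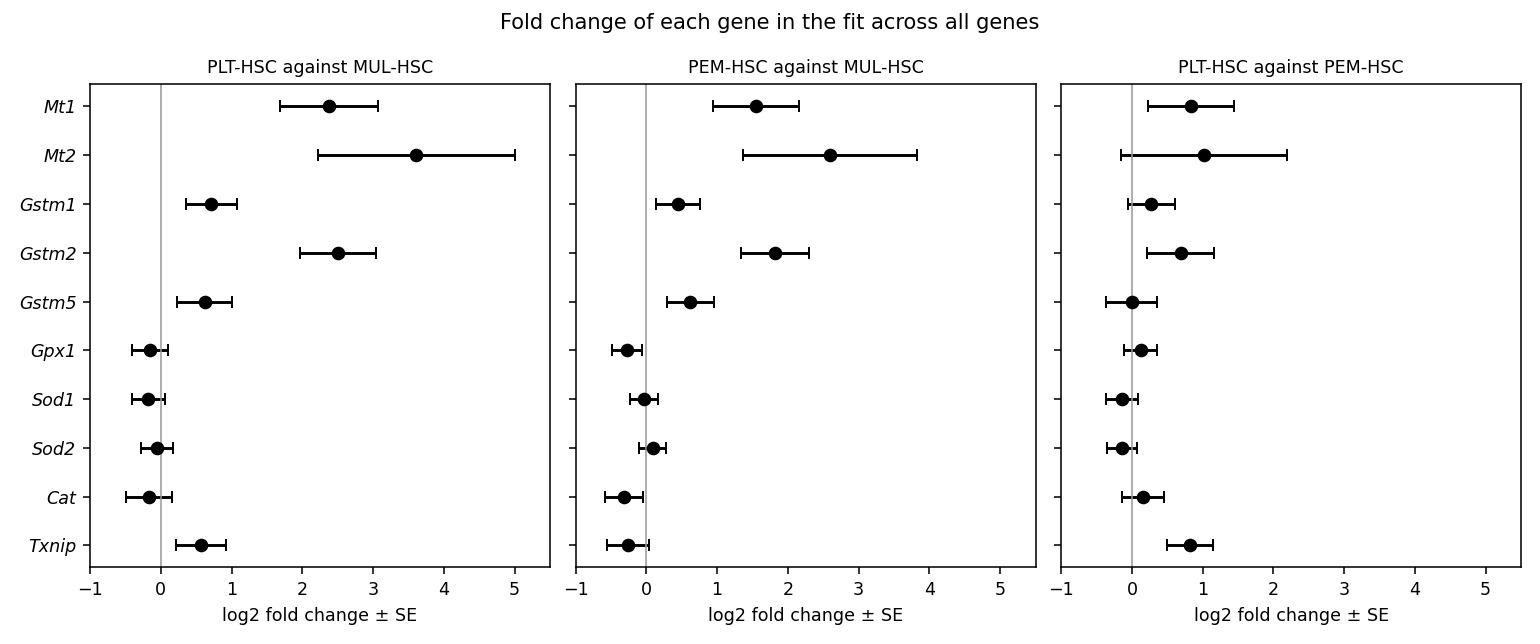
Log2 fold change of the 10 genes (x axis, points, with SE as bars) for PLT-HSC against MUL-HSC (left), PEM-HSC against MUL-HSC (middle) and PLT-HSC against PEM-HSC (right), from the edgeR fit across 12536 genes. Mt1, Mt2 and Gstm2 lie at 2.38, 3.61 and 2.51 in the left panel, and Gpx1, Sod1, Sod2 and Cat lie within 0.32 of 0 in each panel.

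Read as a set, 6 of the 10 genes had a positive log2 fold change for PLT-HSC against MUL-HSC, 6 for PEM-HSC against MUL-HSC and 7 for PLT-HSC against PEM-HSC, against 52.4%, 50.7% and 51.5% of the 12536 genes tested. Their median log2 fold change was 0.59, 0.27 and 0.21, against 0.039, 0.0094 and 0.017 over all genes tested. edgeR's quasi-likelihood test with Benjamini-Hochberg adjustment called none of the 10 in any of the 3 comparisons. It called 6 genes (0.0479%) of all tested for PLT-HSC against MUL-HSC, 1 (0.00798%) for PEM-HSC against MUL-HSC and 0 (0%) for PLT-HSC against PEM-HSC. With no adjustment, a p under 0.05 was reached by Mt1, Mt2 and Gstm2 in the first comparison, by Mt1 and Gstm2 in the second and by Txnip in the third, against 7.37%, 5.93% and 3.73% of all genes. DESeq2 called Mt1 and Gstm2 in the first comparison, Gstm2 in the second and none in the third, where it called 2.01%, 1.42% and 0.752% of all genes, and limma voom called none of the 10 in any. The ranges of 3 of the 10 genes lay wholly above MUL-HSC in PLT-HSC libraries, against 3.75% of all genes higher and 3.04% lower, and that of 1 of the 10, Gstm2, in PEM-HSC libraries, against 0.862% higher and 0.63% lower. Between PLT-HSC and PEM-HSC no member's ranges were apart, against 1.1% of all genes higher and 1.06% lower. Since the members were listed with these contrasts known, nothing is read from those shares. The comparisons share their libraries, so their values are not independent of one another.

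Per kilobase of the principal transcript, the order of abundance was led by Gpx1 and Gstm1 in each group. Gpx1 had 2289 ± 483 CPM per kilobase in PLT-HSC libraries, 2143 ± 521 in PEM-HSC libraries and 2537 ± 595 in MUL-HSC libraries, and Gstm1 had 1050 ± 565, 903 ± 172 and 659 ± 225 in the same 3 groups. The gap between these 2 genes exceeded their SDs in all 3 groups. Mt1 came next after Gstm1 in PLT-HSC libraries (472 ± 123) and PEM-HSC libraries (271 ± 99.0) and below Cat in MUL-HSC libraries (93.4 ± 105), where Txnip (198 ± 118), Sod1 (176 ± 6.13), Gstm5, Cat and Mt1 followed Gstm1 with no neighbours apart by more than their SDs. Sod2 and Mt2 were the last 2 in each group, with Sod2 at 42.9 ± 11.2 in PLT-HSC libraries, 48.3 ± 5.82 in PEM-HSC libraries and 44.6 ± 7.99 in MUL-HSC libraries. Mt2 was at 69.1 ± 27.6 in PLT-HSC libraries, 35.2 ± 15.8 in PEM-HSC libraries and 5.88 ± 9.27 in MUL-HSC libraries, and only in MUL-HSC libraries were the 2 apart by more than their SDs. The summed level of the 10 genes was 5251 to 6882 CPM in PLT-HSC libraries, 4474 to 6150 CPM in PEM-HSC libraries and 4923 to 5177 CPM in MUL-HSC libraries.

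Whether members varied together from library to library was tested within groups, after each group's mean had been subtracted from log2 CPM. This takes out the differences between group means, which were known when the genes were chosen. It leaves the spread within groups, including that of MUL-HSC replicates 1 and 2, already known to stand apart. The p-values are therefore not free of the choice of genes. Of 45 pairs, 2 had an adjusted p under 0.05 by exact permutation of libraries within groups (two-sided, Benjamini-Hochberg over the 45 pairs), and 21 pairs were positive. Mt1 and Mt2 correlated with Pearson's r = 0.966 (exact permutation p = 9.645e-05, adjusted p = 0.00434) and Spearman's rho = 0.938 (exact permutation p = 0.00212, adjusted p = 0.0477) over 13 libraries. Within the 6 PEM-HSC libraries alone r was 0.825 (exact permutation p = 0.0139) and rho 0.943 (exact permutation p = 0.0167). Without the libraries farthest from the median of Mt1, MUL-HSC replicates 2 and 3, r was 0.923 (exact permutation p = 0.00232, adjusted p = 0.104), so the adjusted p no longer passed. MUL-HSC replicate 1 stayed in that set with 0 Mt2 counts, at a log2 CPM of -3.75 set by the prior count. The r over 13 libraries also includes MUL-HSC replicate 2 at the same value. The PEM-HSC libraries hold no such value. The ratio of Mt1 to Mt2 was 5.92 to 9.30 in PLT-HSC libraries, 6.06 to 13.3 in PEM-HSC libraries, and 13.2 and 27.1 in the 2 MUL-HSC libraries with Mt2 counts.

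Mt1 and Gstm1 gave r = 0.578 (exact permutation p = 0.00118, adjusted p = 0.0265) and rho = 0.758 (exact permutation p = 0.000897, adjusted p = 0.0404). Without the same 2 libraries r was 0.577 (adjusted p = 0.135 by exact permutation), so the size held while the adjusted p did not. Within PEM-HSC r was 0.759 (exact permutation p = 0.101). The 3 mu-class transferases did not pass among themselves: Gstm1 and Gstm2 gave r = 0.596 (adjusted p = 0.446 by exact permutation), Gstm1 and Gstm5 r = 0.370 (adjusted p = 0.621) and Gstm2 and Gstm5 r = 0.297 (adjusted p = 0.828). The most negative pair was Sod2 with Txnip, at r = -0.825 (adjusted p = 0.0722 by exact permutation), which became -0.510 without its 2 farthest libraries. Sod1 with Cat gave r = -0.704 (adjusted p = 0.157 by exact permutation). Values of 1 library share its depth and normalization.

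**Figure D3:**
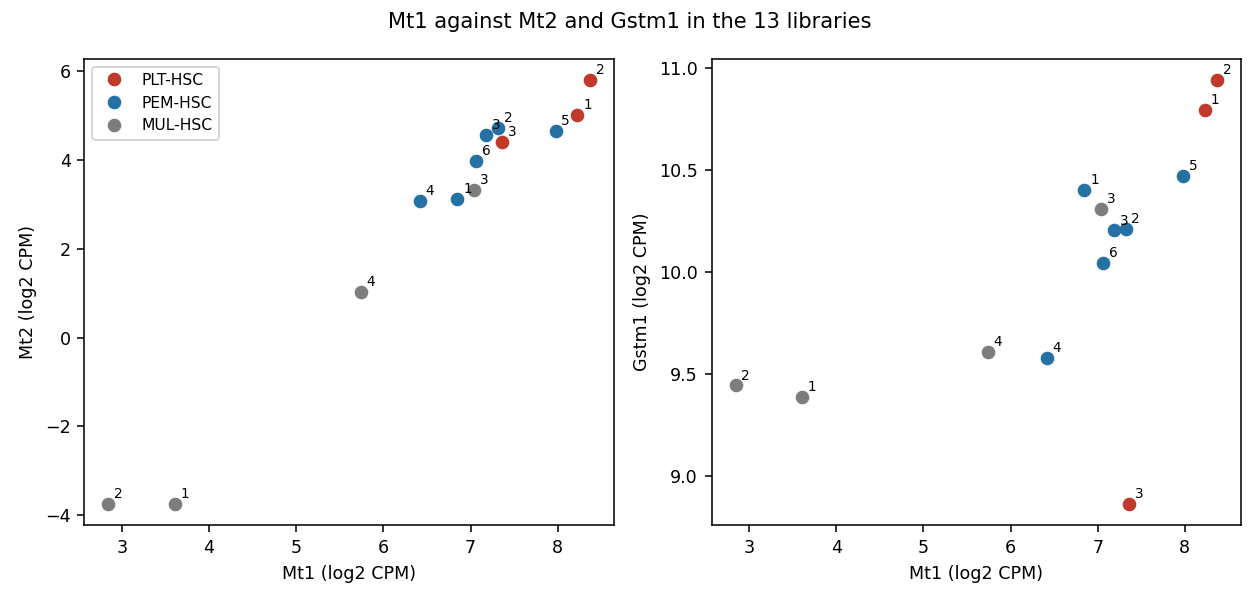
Log2 CPM of Mt1 (x axis) against Mt2 (left panel, y axis) and Gstm1 (right panel, y axis) in the 13 libraries, coloured by group and numbered by replicate. MUL-HSC replicates 1 and 2, with 0 Mt2 counts, sit at the lower left of the Mt2 panel, and MUL-HSC replicate 3, at 131 CPM of Mt1, lies among the PEM-HSC points.

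**Figure D4:**
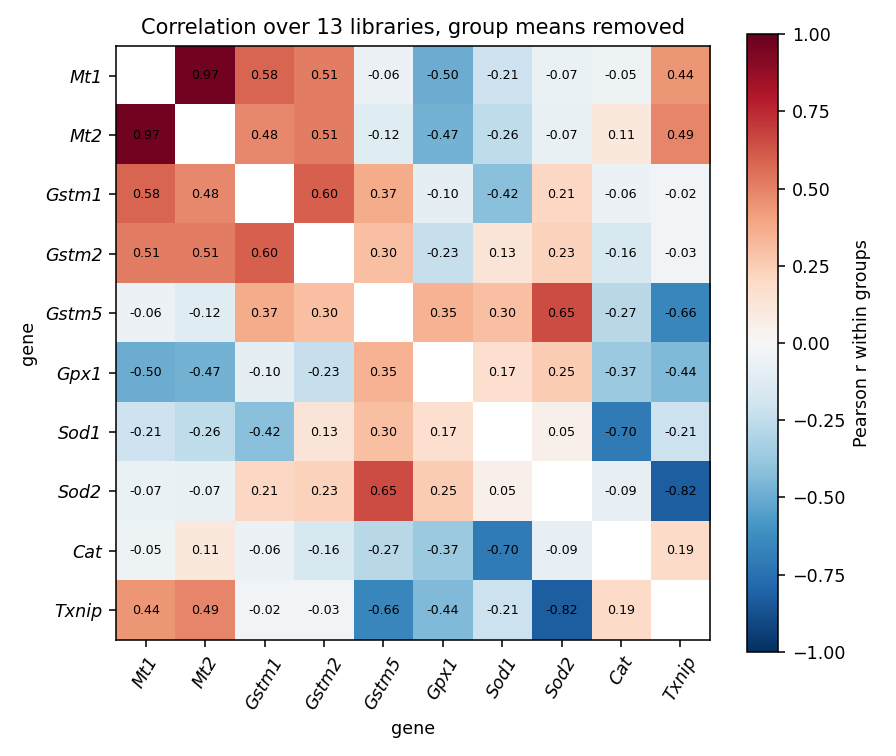
Pearson's r of log2 CPM between each pair of the 10 genes over 13 libraries after removal of the group means, from -1 (blue) to 1 (red), with the value in each cell. The Mt1 and Mt2 cell holds 0.97, and the lowest value, -0.82, is that of Sod2 with Txnip.

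Among 12535 other genes tested, those whose log2 CPM, with group differences kept, followed Mt1 most closely over the 13 libraries included Mt2 (r = 0.98), the receptor-modifying protein gene Ramp2 (0.97), the secreted chaperone gene Clu (0.96) and Sbspon (0.95). For Gstm1 they were the lysosomal protease gene Ctsl (0.96), the stem cell surface marker gene Ly6a (0.92), Acot9 (0.92), Fez1 (0.92) and the receptor gene Lpar6 (0.92). For Txnip they were Gapvd1 (0.93), Ankdd1b (0.92), Zfp768 (0.90), Zdhhc18 (0.88) and Ube2z (0.87), of which Ankdd1b and Zfp768 averaged 2.18 and 1.79 CPM. These are the highest of many correlations and carry no test.

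The rest of the system was followed through 121 further genes in 9 roles, of which 106 had enough counts to be tested. These genes were listed from general knowledge, but with earlier results of these data known. edgeR called none of them in any comparison, against the 0.0479%, 0.00798% and 0% of all genes given above. With no adjustment a p under 0.05 was reached by 9 higher and 5 lower for PLT-HSC against MUL-HSC, by 8 higher and 4 lower for PEM-HSC against MUL-HSC and by none for PLT-HSC against PEM-HSC. Over all 12536 genes tested the counts were 515 higher and 409 lower (7.37%), 482 higher and 262 lower (5.93%), and 198 higher and 269 lower (3.73%). DESeq2 called Aldh3a1, an aldehyde dehydrogenase, in both comparisons with MUL-HSC, where it was at 0 in all 4 MUL-HSC libraries and above 0 in 1 of 3 PLT-HSC and 3 of 6 PEM-HSC libraries, with means of 1.77 ± 3.06 CPM in PLT-HSC libraries and 2.86 ± 3.36 in PEM-HSC libraries. It also called Sirt7, a sirtuin, for PEM-HSC against MUL-HSC, and limma voom called none. Positive log2 fold changes made up 51.9%, 54.7% and 45.3% of the 106 in the 3 comparisons, and the medians were 0.011, 0.050 and -0.066. The 9 higher in PLT-HSC libraries than in MUL-HSC libraries before adjustment were Gstt1, Gstt3, Gpx3, Gpx8, Ephx1, Meis1, Prdm16, Aldh1a1 and Aldh3a1. The 8 higher among PEM-HSC were Gstt1, Gpx8, Srxn1, Ephx1, Sirt7, Meis1, Prdm16 and Aldh3a1. The 5 lower in PLT-HSC libraries than in MUL-HSC libraries before adjustment were Mgst1, Msra, Nqo2, Sirt3 and Taldo1, and all but Msra were also the 4 lower in PEM-HSC libraries than in MUL-HSC libraries. All these genes other than Gpx3, Meis1 and Taldo1 were singled out after their values were seen.

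By role, the most abundant of these genes gave the following group means. Mtf1, the zinc-sensing activator of metallothionein genes, averaged 20.8 ± 11.6 CPM in PLT-HSC libraries, 26.2 ± 5.68 in PEM-HSC libraries and 15.7 ± 11.2 in MUL-HSC libraries, and Slc39a8, a zinc and manganese importer, was below 21 CPM in every library. Gsto1, an omega-class transferase, averaged 291 CPM in PLT-HSC libraries, 289 in PEM-HSC libraries and 325 in MUL-HSC libraries, and Gstp1, the pi-class transferase, 253, 271 and 286 CPM in the same groups. Of the 17 other transferases tested, these included, 6 were positive for PLT-HSC against MUL-HSC, with a median log2 fold change of -0.16, and 10 for PEM-HSC against MUL-HSC, with a median of 0.035. Gclm, the modifier subunit of the first enzyme of glutathione synthesis, averaged 293 CPM in PLT-HSC libraries, 281 in PEM-HSC libraries and 347 in MUL-HSC libraries. Slc3a2, the heavy chain of the cystine and amino acid exchangers, averaged 200.5, 244 and 183 CPM in the same groups.

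Gpx4, which reduces lipid peroxides, averaged 420 CPM in PLT-HSC libraries, 411 in PEM-HSC libraries and 436 in MUL-HSC libraries. Gpx3, the secreted plasma glutathione peroxidase, had 27.3, 148 and 187 CPM in the 3 PLT-HSC libraries, 14.1, 38.8 and 178 CPM as the lowest, median and highest in PEM-HSC libraries, and 0, 7.86 and 40.6 CPM as the lowest, median and highest in MUL-HSC libraries. All ranges overlapped, and the log2 fold change was 3.17 (SE 1.31) for PLT-HSC and 2.31 (SE 1.17) for PEM-HSC, each against MUL-HSC, with adjusted p-values of 0.646 and 0.922 over all genes in the edgeR test. Without MUL-HSC replicates 1 and 2 these log2 values were 2.29 and 1.43. The peroxiredoxins Prdx1 and Prdx6, which reduce peroxides with thioredoxin or glutathione, averaged 1690 and 1569 CPM in PLT-HSC libraries, 1648 and 1619 CPM in PEM-HSC libraries, and 1893 and 1603 CPM in MUL-HSC libraries. Ccs, the chaperone that loads copper into Sod1, averaged 106 CPM in PLT-HSC libraries, 106 in PEM-HSC libraries and 132 in MUL-HSC libraries. The 19 thioredoxin and peroxiredoxin genes had 8 positive members and a median of -0.18 for PLT-HSC against MUL-HSC.

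The NRF2 pathway is named for the factor that activates many antioxidant genes. Of its 18 tested genes, 15 were positive for PLT-HSC against MUL-HSC (83.3%, median 0.28), against 52.4% of all genes tested. For PEM-HSC against MUL-HSC 12 were positive (median 0.10), and for PLT-HSC against PEM-HSC 12 (median 0.14), with none called. The 3 negative genes for PLT-HSC against MUL-HSC were Nqo1 (-0.80), Nqo2 (-1.05) and Fth1 (-0.054). For Nqo1 all PLT-HSC libraries lay below all MUL-HSC libraries. Of the 106 further genes tested, 4 lay wholly higher in PLT-HSC libraries, among them Slc7a11 and Srxn1, and 6 wholly lower. Over all genes these shares were 3.75% and 3.04%, and nothing is read from the counts. Positive NRF2 pathway genes in the same comparison included Hmox1 (2.03) and Ephx1 (1.51). In the glutathione synthesis role 9 of 14 genes were positive for PLT-HSC against MUL-HSC, among them Slc7a11 (3.59) and Gclc (0.54). Gclm (-0.22) and Gsr (-0.49) were among the 5 negative ones. Hmox1, Ephx1, Slc7a11, Gclc and Gsr were named after their values were seen. The share of positive genes was not tested, and no rise of the pathway is read from it. The most abundant NRF2 pathway genes were Ftl1 and Fth1, the ferritin subunits that store iron. They averaged 4813 and 2396 CPM in PLT-HSC libraries and 5016 and 2320 CPM in PEM-HSC libraries. In MUL-HSC libraries their means were 4598 and 2510 CPM. Meis1, a homeobox factor of HSCs that limits their oxidant load, averaged 485 ± 178 CPM in PLT-HSC libraries (n = 3), 452 ± 104 in PEM-HSC libraries (n = 6) and 325 ± 37.8 in MUL-HSC libraries (SD, n = 4), with log2 fold changes of 0.58 and 0.46 against MUL-HSC that were not called. Park7, a redox-sensing chaperone and the most abundant gene of the same role, averaged 644 ± 138 CPM in PLT-HSC libraries, 707 ± 73.8 in PEM-HSC libraries and 803 ± 71.3 in MUL-HSC libraries, with log2 fold changes of -0.33 and -0.21 against MUL-HSC that were not called. Taldo1, the transaldolase of the pentose phosphate pathway, averaged 342 ± 79.4 CPM in PLT-HSC libraries, 377 ± 93.0 in PEM-HSC libraries and 518 ± 126 in MUL-HSC libraries, with log2 fold changes of -0.59 and -0.49 that were not called. Idh2, the mitochondrial enzyme that supplies NADPH, averaged 248 CPM in PLT-HSC libraries, 316 in PEM-HSC libraries and 290 in MUL-HSC libraries.

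**Figure D5:**
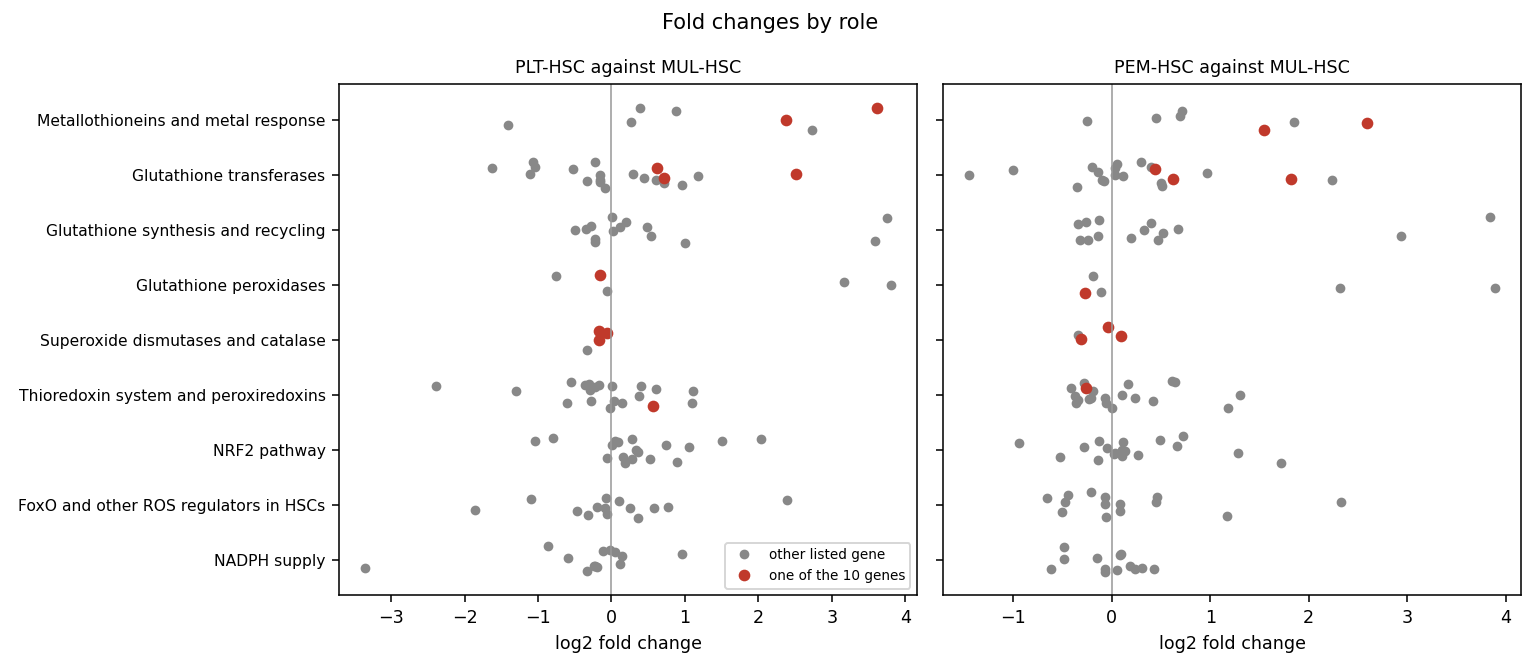
Log2 fold change (x axis) of every tested gene by role (rows) for PLT-HSC against MUL-HSC (left) and PEM-HSC against MUL-HSC (right), with the 10 genes in red and the other listed genes in grey; vertical scatter within a row has no meaning. Aldh3a1, with 0 counts in all MUL-HSC libraries, is not drawn. Mt2, at 3.61 in the left panel, is the highest of the 10 genes, and grey points lie on both sides of 0 in every role with several genes.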

How the data were processed

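The deposited table holds raw counts per gene symbol for 13 libraries, made by the authors with Trimmomatic, FastQC, STAR and featureCounts on mm9, per the submitters' processing notes; versions, settings and use of strand are not given in the sources used here. Per the labels' protocols, cDNA was made with Smart-seq+ and libraries with Nextera XT; no molecular identifiers are named, so counts are of reads. The 92 spike-in rows (ERCC), 0.0191 to 0.0612% of counts, were left out. Libraries held 16371921 to 41367057 gene counts, and no replicates agreed within sampling noise (chi-square per degree of freedom at least 163).

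edgeR 4.0.16 (R 4.3.3; filterByExpr, TMM, robust quasi-likelihood fit of all 13 libraries) tested 12536 of 24015 genes with Benjamini-Hochberg adjustment at 0.05, and SE is the log2 fold change over the square root of F. Every member passed the filter. CPM in the text uses library totals; log2 CPM for correlations uses TMM and a prior count of 2, with 103680 permutations enumerated. DESeq2 1.42.0, limma 3.58.1 and the other alternatives are in the closing section. On simulated counts with 50 genes changed at each size, the fit called 6% of 2-fold, 34% of 4-fold and 58% of 16-fold changes in PLT-HSC against MUL-HSC (12225 genes), and 6%, 42% and 60% in PEM-HSC against MUL-HSC (12180 genes).

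The 10 members and the gene lists were chosen with earlier results of these data known. Named besides the members are, per role, the 2 further genes of highest mean CPM and any called, and the 5 genes most like Mt1, Gstm1 and Txnip, of which 1 is not reported here. Transcript lengths and shared 50-base stretches come from GENCODE on GRCm38 and promoters from RefSeq (all 10 members matched), not from the mm9 build of the counts, so they are matched by symbol.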

Additional observations from a re-analysis of the deposited data

How the results depend on the processing

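In 23 alternative settings most single-gene directions held: 288, 291 and 282 values kept direction and call in PLT-HSC against MUL-HSC, PEM-HSC against MUL-HSC and PLT-HSC against PEM-HSC, and 7, 7 and 17 changed sign. The count of genes called is the least stable quantity. In PLT-HSC against MUL-HSC it was 6, and became 11 without the low-count filter, 13 with at least 10 CPM in at least 3 libraries, 249 in DESeq2, 0 in limma voom, 1 with only the groups compared, 2 with the replicate block, 1 without MUL-HSC replicates 1 and 2, and 1 to 37 leaving out 1 library. In PEM-HSC against MUL-HSC it was 1, and became 175 in DESeq2, 0 with only the groups compared, with the replicate block or with genes detected as covariate, and 0 to 4 leaving out 1 library. In PLT-HSC against PEM-HSC it was 0, and became 93 in DESeq2, 1 in limma voom and 0 to 2 leaving out 1 library. DESeq2 called 2 and 1 members in PLT-HSC and PEM-HSC against MUL-HSC, and 1 and 2 other listed genes as higher. Leaving out 1 library called 0 to 1 members: Mt1 without MUL-HSC replicate 3 (adjusted p = 0.0494, edgeR) and Gstm2 without PLT-HSC replicate 3 (adjusted p = 0.0371, edgeR). For PLT-HSC against MUL-HSC the members had a median of 0.33 without MUL-HSC replicates 1 and 2 and 0.36 to 0.71 leaving out 1 library; in PLT-HSC against PEM-HSC it was -0.053 to 0.43, and that of the other listed genes -0.18 to -0.0084. Without the farthest 2 libraries 0 correlation pairs passed.

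Signs changed for PLT-HSC against PEM-HSC in Gstm5 (0.0014 with at least 10 CPM, 0.18 with genes detected as covariate, -0.30 to 0.15 leaving out 1 library), Gstm1 (-0.000222 in limma voom, -0.048 to 0.68 leaving out 1), Gpx1 (-0.060 with the replicate block, -0.12 to 0.26), Gstm2 (-0.057 to 1.03), Sod2 (-0.44 to 0.025), Cat (-0.073 to 0.32), Meis1 (-0.24 to 0.28) and Taldo1 (-0.37 to 0.088). For PLT-HSC against MUL-HSC they changed in Sod2 (0.096 with the covariate, 0.053 without MUL-HSC replicates 1 and 2, -0.35 to 0.13 leaving out 1) and Gpx1 (0.21 without the same replicates). For PEM-HSC against MUL-HSC they changed in Gpx1 (0.093) and Sod1 (0.040) without those replicates, and leaving out 1 library in Sod1 (-0.11 to 0.027), Sod2 (-0.023 to 0.17) and Txnip (-0.47 to 0.20). The cause was not tested. Mt1, Mt2 and Gstm2 were higher in PLT-HSC and PEM-HSC than in MUL-HSC in all 23: log2 1.52 to 3.44, 2.61 to 6.69 and 1.76 to 2.92 in PLT-HSC, and 0.69 to 2.60, 1.59 to 5.61 and 1.41 to 2.24 in PEM-HSC. These genes were chosen with those differences known and all settings reuse the same libraries, so this is a description only. Libraries with the same number correlated at -0.132 to 0.0482 over all genes tested, after group means were removed. This shows no pairing by number. It cannot exclude pairing, since libraries of different number were not compared and a shared factor may touch few genes. With the replicate block the members' medians were 0.50, 0.21 and 0.15.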
